A study of Homo sapiens with 9 samples.

Results

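The genes described here are those of MHC class I antigen presentation: the heavy chains HLA-B, HLA-C, HLA-E and HLA-F, the shared light chain B2M, the peptide transporter subunits TAP1 and TAP2, the loading factor TAPBP and the transcriptional activator NLRC5. These 9 genes were chosen by name, and each was found in the deposited table of 58735 genes and was among the 16812 genes with enough counts to be tested. Their RNA was measured by bulk RNA sequencing in FaDu, an established cell line of human squamous carcinoma of the hypopharynx, in 3 groups of 3 libraries that the labels call biological replicates. KD_OE libraries are labelled as AMIGO2 knockdown combined with CAPN2 overexpression, KD_NC libraries as AMIGO2 knockdown, and NC_NC libraries as normal control with a WT genotype. All groups were grown in the same serum-supplemented medium with no treatment listed. The agents used for knockdown and overexpression, and whether clones or pools were used were not found in the labels, and every group stands for a single cell line. AMIGO2 encodes a leucine-rich repeat protein of the cell surface, and CAPN2 the catalytic subunit of a calcium-dependent protease, calpain-2.

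MHC class I molecules show peptides from inside the cell to CD8 T cells. The proteasome cuts proteins into peptides, TAP1 and TAP2 pump these peptides into the endoplasmic reticulum, and tapasin, the product of TAPBP, holds an empty heavy chain with its B2M light chain beside the transporter until a peptide fits. HLA-B and HLA-C are classical, highly polymorphic heavy chains, whereas HLA-E and HLA-F are less variable and are read chiefly by receptors of natural killer cells. NLRC5 switches on class I promoters together with factors bound to conserved upstream elements, and interferon raises the same genes. Carcinoma cells often lower this pathway and so escape T cells.

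The promoters are shown because several of these genes share control elements. The RefSeq promoter table (GRCh38.p14) held 7 of the 9 genes, and the 190 bases before the transcription start are printed on the strand of the gene, with the bases matching a searched motif in capitals.
HLA-B: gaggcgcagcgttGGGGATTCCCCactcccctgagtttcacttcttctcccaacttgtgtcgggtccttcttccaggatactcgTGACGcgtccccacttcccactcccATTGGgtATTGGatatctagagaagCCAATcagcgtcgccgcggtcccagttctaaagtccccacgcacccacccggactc
HLA-C: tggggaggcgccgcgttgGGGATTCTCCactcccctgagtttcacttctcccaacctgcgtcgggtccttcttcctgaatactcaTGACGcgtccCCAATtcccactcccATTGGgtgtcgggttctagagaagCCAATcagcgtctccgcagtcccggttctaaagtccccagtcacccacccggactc
HLA-F: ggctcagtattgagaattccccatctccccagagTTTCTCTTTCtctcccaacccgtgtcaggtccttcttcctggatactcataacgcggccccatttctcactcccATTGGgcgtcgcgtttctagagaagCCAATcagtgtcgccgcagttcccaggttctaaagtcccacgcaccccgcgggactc
B2M: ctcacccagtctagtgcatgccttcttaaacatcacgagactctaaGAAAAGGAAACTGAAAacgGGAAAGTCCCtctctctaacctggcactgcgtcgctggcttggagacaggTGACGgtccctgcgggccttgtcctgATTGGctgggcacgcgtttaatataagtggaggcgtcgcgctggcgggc
TAP1: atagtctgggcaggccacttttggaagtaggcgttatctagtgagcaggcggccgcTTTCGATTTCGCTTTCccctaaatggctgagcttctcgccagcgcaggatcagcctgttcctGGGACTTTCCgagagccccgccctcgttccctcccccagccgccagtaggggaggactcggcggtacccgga
TAP2: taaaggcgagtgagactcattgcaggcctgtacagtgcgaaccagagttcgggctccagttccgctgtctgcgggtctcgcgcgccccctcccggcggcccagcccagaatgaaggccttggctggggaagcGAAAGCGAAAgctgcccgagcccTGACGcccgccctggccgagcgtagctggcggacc
TAPBP: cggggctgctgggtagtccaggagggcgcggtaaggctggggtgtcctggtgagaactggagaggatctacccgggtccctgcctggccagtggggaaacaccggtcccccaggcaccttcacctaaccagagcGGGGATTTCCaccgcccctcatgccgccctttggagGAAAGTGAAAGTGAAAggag
The windows lie, on GRCh38.p14, at chr6:31357180-31357369 (HLA-B, minus strand), chr6:31272093-31272282 (HLA-C, minus strand), chr6:29723244-29723433 (HLA-F, plus strand), chr15:44711327-44711516 (B2M, plus strand), chr6:32853705-32853894 (TAP1, minus strand), chr6:32838740-32838929 (TAP2, minus strand) and chr6:33314079-33314268 (TAPBP, minus strand). The letters GAAA, any 2 bases and GAAA, the core of the interferon-stimulated response element, were searched on both strands and occurred in 5 of the 7 windows (HLA-F, B2M, TAP1, TAP2 and TAPBP), against 2.29% of all 35116 windows of the same length. An NF-kB site, named only, was matched in 5 of 7 (HLA-B, HLA-C, B2M, TAP1 and TAPBP), against 7.79% of all windows. The letters TGACG, a core of cyclic AMP response elements, were matched in 4 of 7 (HLA-B, HLA-C, B2M and TAP2), against 17.8%. The letters CCAAT, bound by NF-Y, were matched in 4 of 7 (HLA-B, HLA-C, HLA-F and B2M), against 27.0%. The gamma-activated site TTCNNNGAA was matched in 0 of 7, against 4.78%. Overlapping matches were counted once a window, and the matches are descriptions of letters, not of bound factors. Only exact matches were counted. The windows of HLA-B and HLA-C, which had no exact match to the interferon core, may thus hold a variant of it. The windows of HLA-B and HLA-C were 87.6% identical over their alignment, those of HLA-B and HLA-F 81.9% and those of HLA-C and HLA-F 79.7%, whereas every other pair lay between 42.8% and 52.4%.

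Libraries held 15158607 to 19737562 counts, so 3 counts, the lowest level taken as detected, corresponded to 0.149 to 0.203 CPM (counts scaled to a common library total), counting error only. Levels are CPM after scaling by trimmed mean of M values (TMM). AMIGO2 stood at 42.8, 35.3 and 38.8 CPM in KD_OE libraries, at 24.5, 31.2 and 27.3 CPM in KD_NC libraries and at 29.5, 26.1 and 27.2 CPM in NC_NC libraries. The libraries labelled knockdown were therefore not lower in AMIGO2 RNA than the control (log2 fold change 0.01, 95% interval -0.23 to 0.25, edgeR adjusted p = 0.971), so KD_OE and KD_NC are used below as names of labels. AMIGO2 was higher in KD_OE than in KD_NC libraries (log2 0.49, adjusted p = 0.0014 by edgeR). CAPN2 averaged 499 ± 1.29 CPM in KD_OE, 418 ± 20.3 CPM in KD_NC and 462 ± 13.9 CPM in NC_NC libraries (SD, n = 3 each), and was higher in KD_OE than in KD_NC (log2 0.26, adjusted p = 0.012 by edgeR) but not than in NC_NC (log2 0.11, adjusted p = 0.254). The rise over KD_NC was lost with no filter on low counts and without KD_OE replicate 1. Of 8 markers of squamous epithelium all were tested, with summed levels of 5158 to 5803 CPM in KD_OE, 4826 to 6030 CPM in KD_NC and 8818 to 9395 CPM in NC_NC libraries. KRT5 made up most of this difference, with means of 1616, 1207 and 4437 CPM in the same order of groups. KRT14 (55.2, 124 and 261 CPM), KRT6A (16.8, 23.2 and 51.4 CPM) and KRT8 (451, 1049 and 1196 CPM) were also highest in NC_NC. KRT17 stood at 1742, 2099 and 1860 CPM and EGFR at 1075, 606 and 883 CPM. Like these, TP63 and EPCAM were not highest in NC_NC. The part of these markers in the class I values was not tested. Replicates correlated at 0.984 to 0.99 and libraries of different groups at 0.945 to 0.976, and the KD_NC libraries were the least alike, with a mean chi-square per gene of 21.15 to 21.65 between pairs, against 3.02 to 7.61 within KD_OE and 2.69 to 5.05 within NC_NC.

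The class I genes did not move as a block. In KD_NC against NC_NC libraries, HLA-B and B2M rose and HLA-E and TAPBP fell, so 4 of 9 genes were called at an edgeR adjusted p under 0.05 (Benjamini-Hochberg over all genes tested), where 34.6% of all genes tested were called. The 2 rises stood beside 16% of all genes higher and the 2 falls beside 18.5% lower. In KD_OE against KD_NC libraries, HLA-E, HLA-F, TAP1 and NLRC5 rose and none of the 9 fell at that threshold, 4 of 9 against 49.2% of all genes, of which 23.7% were higher and 25.6% lower. In KD_OE against NC_NC libraries, HLA-B, HLA-F, B2M, TAP1 and NLRC5 rose and HLA-C, TAP2 and TAPBP fell, 8 of 9 against 56.3% of all genes. The 5 rises stood beside 27.9% of all genes higher and the 3 falls beside 28.4% lower. The median log2 fold change of the 9 genes was -0.05 in the first of these comparisons, 0.11 in the second and 0.34 in the third, beside -0.01, 0.01 and 0.02 for all genes tested. The groups' libraries did not overlap for 5, 4 and 8 of the 9 genes, beside 44.7%, 54% and 66.9% of all genes tested. The share of the 9 genes called was thus near the background in KD_NC against NC_NC and in KD_OE against KD_NC. The 3 comparisons share libraries with one another, so their values are given side by side and not as separate evidence. In a bulk sample a change in RNA per cell and a change in the make-up of the culture cannot be told apart.

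**Figure D1:**
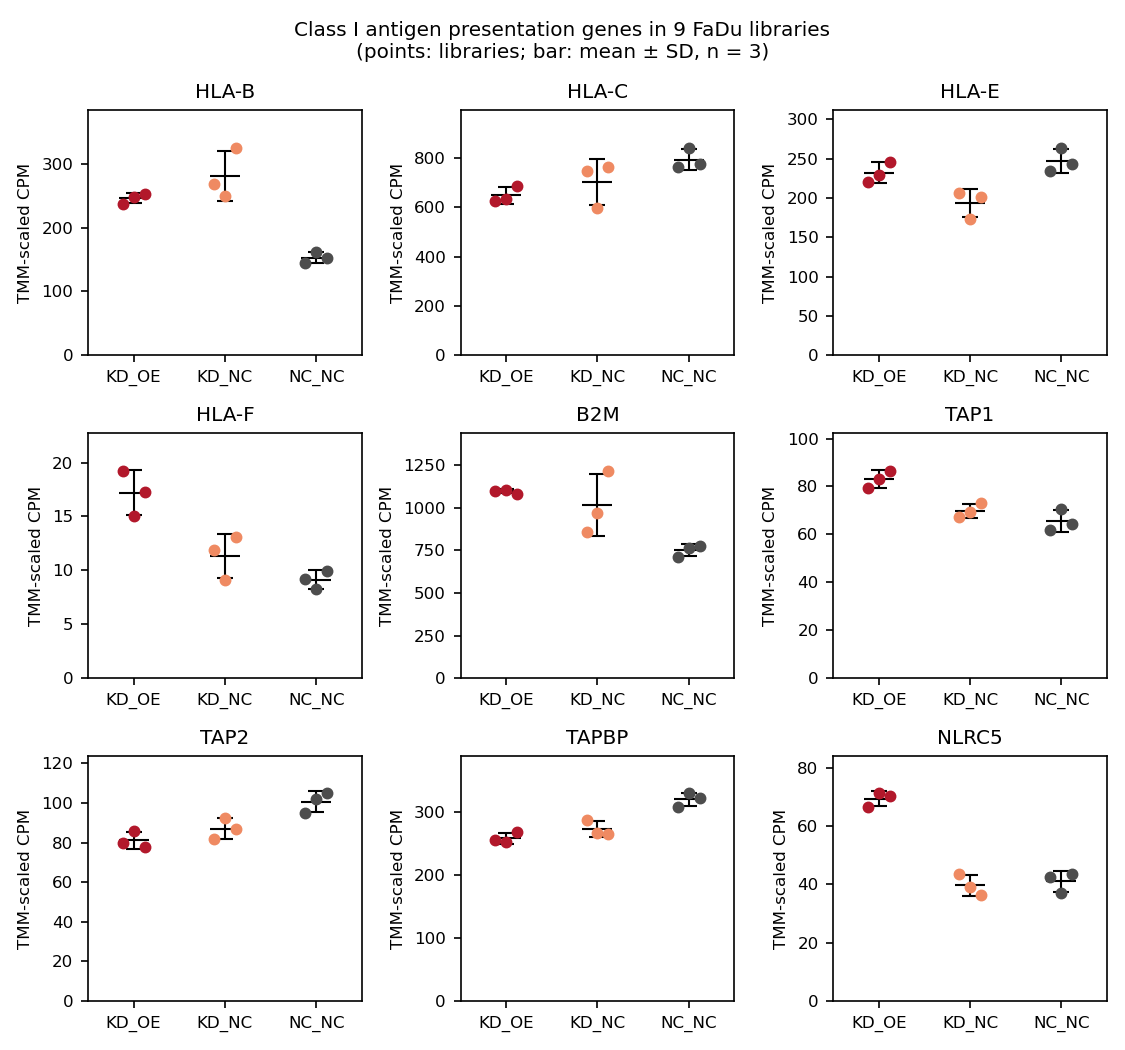
TMM-scaled CPM (linear axis from 0) of each of the 9 genes in the libraries labelled KD_OE, KD_NC and NC_NC. Points are libraries and bars the mean ± SD (n = 3). HLA-B and B2M are higher in both KD groups than in NC_NC, while NLRC5 is higher in KD_OE alone, at 66.4 to 71.1 CPM.

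HLA-B, a classical heavy chain, was higher in both groups labelled as knockdown. It stood at 238, 248 and 253 CPM in KD_OE libraries, at 269, 249.5 and 326 CPM in KD_NC libraries and at 144, 162 and 153 CPM in NC_NC libraries. Every KD_OE and KD_NC library lay above every NC_NC library, and the KD_OE and KD_NC libraries overlapped. HLA-B rose 1.84-fold in KD_NC over NC_NC (log2 0.88 ± 0.10 SE, edgeR adjusted p = 1.80e-06) and 1.61-fold in KD_OE over NC_NC (log2 0.68 ± 0.10, adjusted p = 7.26e-06). Between KD_OE and KD_NC the log2 fold change was -0.19, with a 95% interval of -0.39 to 0.01 (edgeR adjusted p = 0.107). It passed without KD_NC replicate 2 (log2 -0.31, adjusted p = 0.00878) and with a correction for GC content and length (log2 -0.17, adjusted p = 0.0476), and was -0.08 without KD_NC replicate 3 (adjusted p = 0.405).

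HLA-C, the other classical heavy chain here and the gene next to HLA-B, did not follow it. It stood at 625, 634 and 687 CPM in KD_OE libraries, at 748, 597 and 766 CPM in KD_NC libraries and at 762, 843 and 775 CPM in NC_NC libraries. KD_OE libraries lay below NC_NC libraries without overlap, and KD_NC libraries overlapped both. HLA-C fell in KD_OE against NC_NC by 0.29 on the log2 scale (SE 0.10, edgeR adjusted p = 0.0156), and this call was lost in 5 of 17 alternative analyses. With upper-quartile scaling the log2 fold change was -0.19 (adjusted p = 0.112). With a correction for GC content and length the value was -0.03 (adjusted p = 0.693), and the adjusted p was 0.0681 without KD_OE replicate 1, 0.06 without KD_OE replicate 2 and 0.0685 without NC_NC replicate 2. In KD_NC against NC_NC HLA-C stood at log2 -0.17 (edgeR adjusted p = 0.177), and passed with limma voom (log2 -0.21, adjusted p = 0.0472). In KD_OE against KD_NC it stood at log2 -0.12 (edgeR adjusted p = 0.336), and at -0.26 without KD_NC replicate 2 (adjusted p = 0.015).

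HLA-E, the ligand of the inhibitory receptor NKG2A, was lowest in KD_NC libraries. It stood at 221, 229.6 and 246 CPM in KD_OE libraries, at 206, 174 and 201 CPM in KD_NC libraries and at 235, 264 and 243 CPM in NC_NC libraries. KD_NC libraries lay below both other groups without overlap, whereas KD_OE and NC_NC libraries overlapped. HLA-E fell by 0.35 on the log2 scale in KD_NC against NC_NC (SE 0.09, edgeR adjusted p = 0.00502), or by 0.23 with the GC and length correction (adjusted p = 0.00381). It rose by 0.26 in KD_OE against KD_NC (SE 0.09, adjusted p = 0.0212), a call lost with no filter on low counts, without KD_NC replicate 2 (log2 0.15, adjusted p = 0.158) and without KD_OE replicate 2 or 3. KD_OE against NC_NC gave a log2 fold change of -0.09 (95% interval -0.28 to 0.10).

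HLA-F, a nonclassical heavy chain, was the least abundant of the 4 in counts. It stood at 19.3, 15.1 and 17.3 CPM in KD_OE libraries, at 11.9, 9.11 and 13.1 CPM in KD_NC libraries and at 9.20, 8.25 and 9.96 CPM in NC_NC libraries. KD_OE libraries lay above all others, and KD_NC and NC_NC libraries overlapped. HLA-F rose 1.52-fold in KD_OE over KD_NC (log2 0.60 ± 0.15 SE, edgeR adjusted p = 0.00234) and 1.88-fold in KD_OE over NC_NC (log2 0.91 ± 0.15, adjusted p = 4.51e-05). For KD_NC over NC_NC the log2 fold change was 0.31 (adjusted p = 0.131), and it passed without KD_NC replicate 2 (log2 0.48, adjusted p = 0.0215) and with the GC and length correction (log2 0.46, adjusted p = 0.0147).

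The heavy chain RNA therefore shifted in composition, while the groups overlapped in its sum. An exact permutation test of 3 against 3 cannot give a p under 0.05, so it cannot show whether the sum was steady. The sum was not corrected for GC content and length. The 4 heavy chains together held 1103, 1127 and 1203 CPM in KD_OE, 1235, 1030 and 1305 CPM in KD_NC and 1150, 1277 and 1181 CPM in NC_NC libraries, and the groups overlapped (exact permutation p between 0.3 and 1.0, two-sided, where 0.1 is the smallest possible with 3 against 3). HLA-B made up 21.5% ± 0.53 of these counts in KD_OE, 23.6% ± 1.67 in KD_NC and 12.7% ± 0.21 in NC_NC libraries (SD, n = 3 each). HLA-C made up 56.7%, 59.1% and 66.0% on average in the same order of groups, HLA-E 20.3%, 16.3% and 20.5%, and HLA-F 1.51%, 0.949% and 0.763%. Per 100 HLA-C counts there were 38.0, 39.2 and 36.7 HLA-B counts in KD_OE libraries, 35.9, 41.8 and 42.5 in KD_NC libraries and 18.9, 19.3 and 19.7 in NC_NC libraries. This ratio was 1.97-fold higher in KD_OE and 2.08-fold higher in KD_NC than in NC_NC libraries, without overlap (exact permutation p = 0.1 for each, two-sided, the smallest possible). A ratio taken within a library does not depend on the scaling between libraries.

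The identity of class I counts carries a limit. Class I heavy chain genes are related in sequence and differ between people, reads were assigned to reference alleles, and neither the alleles of FaDu nor the handling of reads with several matches is given in the sources used here, so counts of HLA-B, HLA-C, HLA-E and HLA-F may be split between genes and are uncertain to that extent. In the annotation used (GRCh38), HLA-C lies at chr6:31268749-31272130 and the gene model of HLA-B at chr6:31269491-31357188 reaches over it, sharing 35 exon bases. HLA-E lies at chr6:30489467-30494205. HLA-F lies at chr6:29722775-29738528 and shares 535 exon bases with its antisense gene HLA-F-AS1, which had 247 counts in all 9 libraries against 1897 for HLA-F. Whether strand was used in the counting is not stated, so reads of HLA-F and of its antisense gene cannot be told apart.

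**Figure D2:**
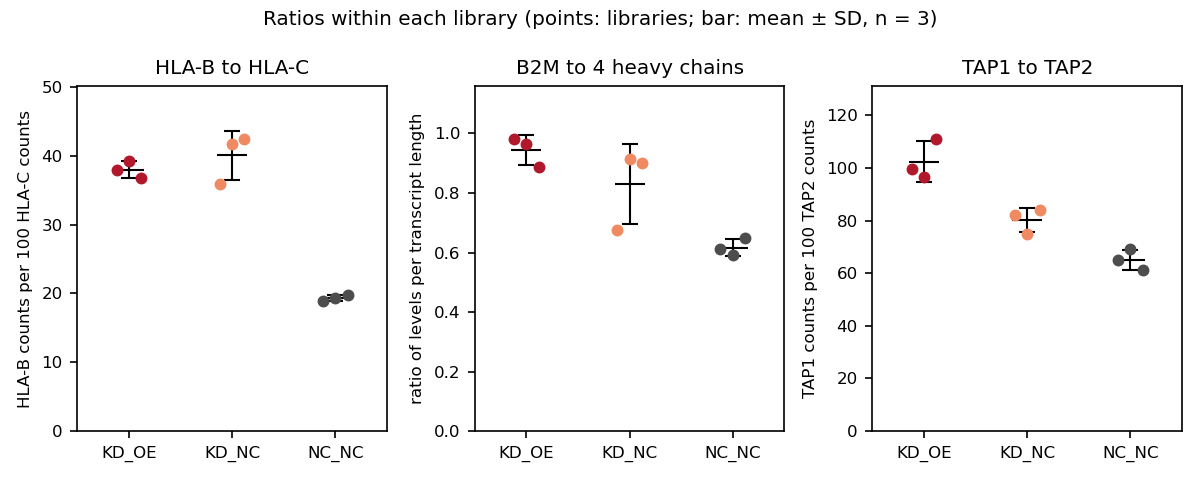
Ratios within each library on linear axes from 0, for KD_OE, KD_NC and NC_NC: HLA-B counts per 100 HLA-C counts, B2M per heavy chain (CPM per length of the principal transcript, over the sum of the 4 heavy chains on that scale) and TAP1 counts per 100 TAP2 counts. Points are libraries and bars mean ± SD (n = 3). NC_NC libraries are lowest in all 3 ratios, which are not corrected for GC content.

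B2M, the shared light chain of class I molecules, was higher in both groups labelled as knockdown. It stood at 1101, 1105 and 1083 CPM in KD_OE libraries, at 861, 969.6 and 1219 CPM in KD_NC libraries and at 714, 765 and 777 CPM in NC_NC libraries. Every NC_NC library was below all others, and the KD_NC libraries spread around the narrow range of KD_OE. B2M rose 1.35-fold in KD_NC over NC_NC (log2 0.43 ± 0.10 SE, edgeR adjusted p = 0.00331) and 1.46-fold in KD_OE over NC_NC (log2 0.54 ± 0.10, adjusted p = 0.000203). With the GC and length correction these values were log2 0.22 (adjusted p = 0.0324) and 0.35 (adjusted p = 0.000812), and without KD_NC replicate 3 the KD_NC over NC_NC value was log2 0.28. The log2 fold change of KD_OE over KD_NC was 0.11 (95% interval -0.11 to 0.33, edgeR adjusted p = 0.407), and without KD_NC replicate 3, the library with the most B2M in its group, it was 0.25 (adjusted p = 0.0101). B2M, alone with NLRC5 among the 9, lies off chromosome 6, at chr15:44711487-44718877.

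Set against the heavy chains per length of the principal transcript, B2M stood at 0.983, 0.966 and 0.887 per heavy chain in KD_OE, at 0.676, 0.913 and 0.900 in KD_NC and at 0.611, 0.591 and 0.648 in NC_NC libraries. NC_NC libraries were lowest, without overlap (exact permutation p = 0.1 against each other group, two-sided), and KD_OE and KD_NC overlapped (p = 0.3, exact permutation). This ratio was not corrected for GC content, which was 40.6% for B2M and 54.8% to 62.7% for the heavy chains. With the GC and length correction, B2M stood at log2 0.22 in KD_NC over NC_NC. In the same comparison and correction HLA-B stood at 1.05, HLA-C at 0.05, HLA-E at -0.23 and HLA-F at 0.46. The part of GC content in the difference of the ratio was not tested.

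TAP1 and TAP2, which form the peptide transporter as a pair and lie near each other on chromosome 6 (chr6:32845209-32853978 and chr6:32821833-32838780), went in opposite directions in KD_OE against NC_NC libraries. TAP1 stood at 79.3, 83.2 and 86.6 CPM in KD_OE libraries, at 67.1, 69.3 and 73.1 CPM in KD_NC libraries and at 61.6, 70.6 and 64.3 CPM in NC_NC libraries. KD_OE libraries lay above the others, and KD_NC and NC_NC libraries overlapped. TAP1 rose by 0.34 on the log2 scale in KD_OE over NC_NC (SE 0.09, edgeR adjusted p = 0.0033), or by 0.53 with the GC and length correction. It rose by 0.25 in KD_OE over KD_NC (SE 0.09, adjusted p = 0.0267), a call lost in 8 of 17 alternatives, with an adjusted p between 0.0533 and 0.103 without KD_NC replicate 1 or 2, without any one KD_OE library or without NC_NC replicate 3. In KD_NC over NC_NC it stood at log2 0.09 (adjusted p = 0.466), and at 0.26 with the GC and length correction (adjusted p = 0.006).

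TAP2 stood at 79.7, 86.0 and 77.9 CPM in KD_OE libraries, at 81.8, 92.4 and 87.1 CPM in KD_NC libraries and at 94.8, 102 and 105 CPM in NC_NC libraries. NC_NC libraries were above all others, and KD_OE and KD_NC libraries overlapped. TAP2 fell by 0.31 on the log2 scale in KD_OE against NC_NC (SE 0.09, edgeR adjusted p = 0.00604), and stood at -0.21 with upper-quartile scaling (adjusted p = 0.0534). In KD_NC against NC_NC the value was -0.21 (adjusted p = 0.0761), and with the GC and length correction -0.19 (adjusted p = 0.0411). TAP1 counts per 100 TAP2 counts were 99.5, 96.7 and 111 in KD_OE, 82.0, 75.0 and 83.9 in KD_NC and 65.0, 69.0 and 61.4 in NC_NC libraries. No pair of groups overlapped in this ratio, with an exact permutation p of 0.1 for each, two-sided. TAP2 shares 2064 exon bases with the gene AL669918.1 on the same strand, which was listed at 0 counts in every library, and TAP1 shares 456 with PSMB8-AS1 on the other strand, which had 273 counts in all against 11055 for TAP1.

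TAPBP, which encodes tapasin and lies at chr6:33299694-33314387, was lower in KD_OE than in NC_NC libraries. It stood at 255, 251 and 268 CPM in KD_OE libraries, at 287, 267 and 265 CPM in KD_NC libraries and at 308, 329 and 321 CPM in NC_NC libraries. NC_NC libraries were above all others, and KD_OE and KD_NC libraries overlapped. TAPBP fell by 0.31 on the log2 scale in KD_OE against NC_NC (SE 0.08, edgeR adjusted p = 0.00296), or by 0.17 with the GC and length correction (adjusted p = 0.0139) and 0.20 with upper-quartile scaling (adjusted p = 0.0399). It fell by 0.23 in KD_NC against NC_NC (SE 0.08, adjusted p = 0.0351), a call lost in 11 of 17 alternatives. Among these the value was -0.06 with the GC and length correction (adjusted p = 0.437) and the adjusted p was 0.0673 with a replicate block, 0.121 without KD_NC replicate 2, 0.0862 and 0.0621 without KD_OE replicate 1 or 2 and between 0.0599 and 0.131 without any one NC_NC library.

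NLRC5, the activator of class I transcription, was higher in KD_OE libraries than in either other group. It stood at 66.4, 71.1 and 70.3 CPM in KD_OE libraries, at 43.6, 38.9 and 36.3 CPM in KD_NC libraries and at 42.6, 37.0 and 43.5 CPM in NC_NC libraries. KD_OE libraries were above all others, and KD_NC and NC_NC libraries overlapped. NLRC5 rose 1.75-fold in KD_OE over KD_NC (log2 0.81 ± 0.10 SE, edgeR adjusted p = 2.39e-06) and 1.69-fold in KD_OE over NC_NC (log2 0.76 ± 0.10, adjusted p = 3.35e-06). KD_NC against NC_NC gave log2 -0.05 (95% interval -0.26 to 0.16, adjusted p = 0.733). NLRC5 lies at chr16:56989485-57083531.

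**Figure D3:**
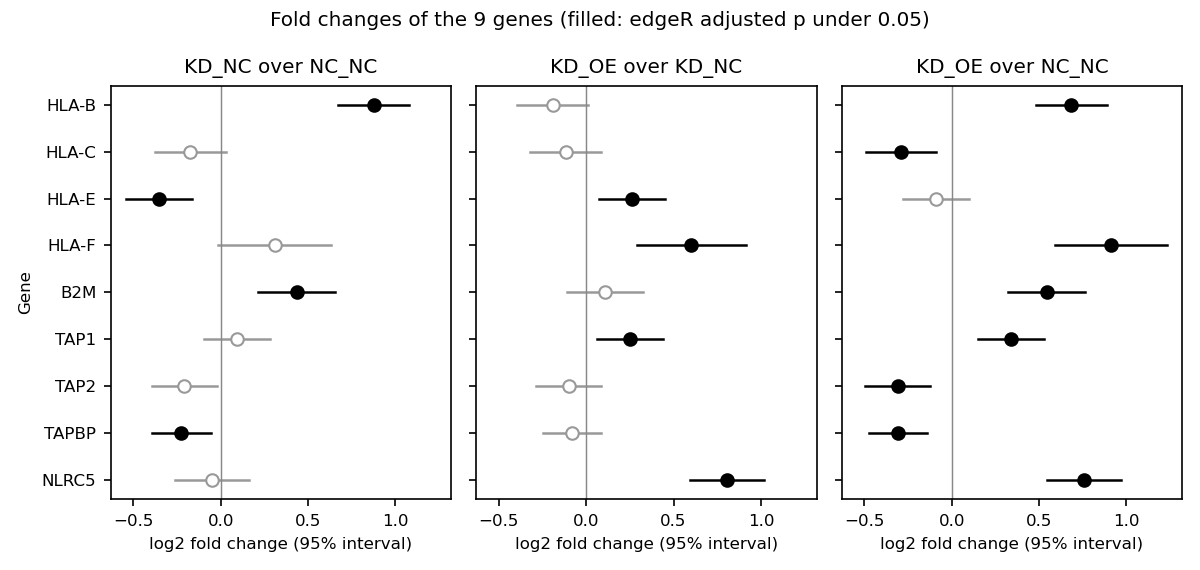
Log2 fold change of each of the 9 genes (points) with its 95% interval (lines) in the comparisons KD_NC over NC_NC, KD_OE over KD_NC and KD_OE over NC_NC, from edgeR. Filled points have an adjusted p under 0.05, which holds for 4, 4 and 8 genes. HLA-B is at 0.88 and 0.68 in the comparisons with NC_NC, and NLRC5 at 0.81 and 0.76 in those of KD_OE.

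Compared per length, the 9 genes kept similar places in every group. On the scale of CPM per kilobase of the longest principal transcript, the levels in KD_OE were 643 ± 6.82 for B2M, 422 ± 21.9 for HLA-C, 159 ± 4.99 for HLA-B, 137 ± 4.54 for TAPBP, 89.3 ± 5.04 for HLA-E, 32.5 ± 1.69 for TAP2, 28.1 ± 1.24 for TAP1, 10.5 ± 1.28 for HLA-F and 10.2 ± 0.37 for NLRC5 (SD, n = 3). In that order HLA-F and NLRC5 did not differ beyond their spread, and the other neighbours did not overlap. In NC_NC libraries HLA-C came first, at 517 ± 28.1 on this scale, before B2M at 441 ± 19.5, and TAPBP, at 169 ± 5.56, came before HLA-B, at 99.0 ± 5.91, which lay next to HLA-E, at 95.1 ± 5.83, within the spread. KD_NC libraries had the order of KD_OE, with HLA-F at 6.94 ± 1.24 and NLRC5 at 5.81 ± 0.55, again within their spread. The order of several neighbours depends on the length used. By the union of exons, 6079 bases for B2M against 1705 for its principal transcript, HLA-C came first in all 3 groups. On that scale HLA-E came before TAPBP in all 3 groups, at 78.0 against 51.0 in KD_OE. NLRC5 came before HLA-F in all 3 groups, at 5.59 against 3.96 in KD_OE. TAP1 came before TAP2 in KD_OE, at 17.3 against 12.7, and in KD_NC, but not in NC_NC.

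The profile of the 9 genes together, taken as the mean of their centred log2 CPM over the 9 libraries, was compared with 10358 other genes with a mean of at least 5 CPM, and YIPF3, CDH3, LRRFIP2 and TARS were among the 5 closest. The root mean square difference from this profile was 0.0506 for YIPF3, a protein of the Golgi membrane, and 0.058 for TARS, a threonyl-tRNA synthetase. YIPF3 averaged 61.1 ± 2.24 CPM in KD_OE, 54.4 ± 2.80 CPM in KD_NC and 52.5 ± 2.22 CPM in NC_NC libraries. The members lay farther from their own mean, from 0.0686 for TAP1 to 0.331 for HLA-B on the same measure.

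Around the 9 genes, the chaperones and carriers of the endoplasmic reticulum that fold, load and export class I molecules were more often higher than lower in each comparison. Of 13 genes in this list, 5 rose and 0 fell in KD_NC over NC_NC by edgeR, 6 rose and 2 fell in KD_OE over KD_NC, and 7 rose and 1 fell in KD_OE over NC_NC, with 8, 5 and 5 not passing and median log2 fold changes of 0.11, 0.15 and 0.80. Of all genes tested, 16%, 23.7% and 27.9% were higher and 18.5%, 25.6% and 28.4% lower in these comparisons. HSPA5, the BiP chaperone that binds free heavy chains, stood at 5122, 5209 and 5284 CPM in KD_OE libraries, at 1657, 1737 and 1983 CPM in KD_NC libraries and at 655, 686 and 677 CPM in NC_NC libraries. The 3 groups formed 3 separate steps, and HSPA5 rose 2.67-fold in KD_NC over NC_NC, 2.90-fold in KD_OE over KD_NC and 7.74-fold in KD_OE over NC_NC (edgeR adjusted p = 1.15e-09, 1.26e-10 and 4.80e-14). CALR, calreticulin of the peptide-loading complex, stood at 1611, 1655 and 1805 CPM in KD_OE, 874, 730.1 and 868 CPM in KD_NC and 375, 401 and 389 CPM in NC_NC libraries, again in 3 steps, and was 4.35-fold higher in KD_OE than in NC_NC (adjusted p = 2.64e-12 by edgeR). CANX, calnexin, which holds newly made heavy chains, was higher in KD_OE alone, at 2575, 2499.5 and 2385 CPM, against 1035, 1161 and 1109 CPM in KD_NC and 1021, 1003 and 1025 CPM in NC_NC libraries. It rose 2.26-fold in KD_OE over KD_NC (edgeR adjusted p = 1.85e-09). BCAP31, a sorting receptor for class I molecules leaving the endoplasmic reticulum, fell in KD_OE against KD_NC (log2 -0.51, edgeR adjusted p = 0.000176).

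Among genes of peptide supply more fell than rose in each comparison, and many did not pass. Of 14 genes of proteasome subunits and peptidases, 2 rose and 6 fell in KD_NC against NC_NC by edgeR, 2 rose and 6 fell in KD_OE against KD_NC, and 3 rose and 8 fell in KD_OE against NC_NC, with 6, 6 and 3 not passing and median log2 fold changes of -0.13, -0.16 and -0.59. Of all genes tested, the shares lower in the same comparisons were 18.5%, 25.6% and 28.4%, and the shares higher 16%, 23.7% and 27.9%. PSMB10, a catalytic subunit of the immunoproteasome, stood at 9.13, 12.3 and 13.95 CPM in KD_OE libraries, at 12.8, 6.27 and 9.37 CPM in KD_NC libraries and at 25.9, 30.0 and 25.4 CPM in NC_NC libraries. Every NC_NC library was above all others, and PSMB10 was 2.88-fold lower in KD_NC than in NC_NC (edgeR adjusted p = 1.51e-05). It shares 644 exon bases with AC040162.1 on the same strand, so its level is uncertain to that extent. PSMB5, the constitutive counterpart of an immunoproteasome subunit, also fell, at 73.8, 76.3 and 80.4 CPM in KD_OE, 138, 128 and 157 CPM in KD_NC and 166, 211 and 185 CPM in NC_NC libraries (KD_OE against NC_NC log2 -1.28, edgeR adjusted p = 4.55e-09). The fall was thus not limited to immunoproteasome subunits. PSMB8 and PSMB9, the other immunoproteasome catalytic subunits, named here after their values were seen, fell in KD_OE against NC_NC too (log2 -0.57 and -0.82, adjusted p = 0.000117 and 2.75e-05 by edgeR), and share 139 exon bases on opposite strands.

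The peptidases of this list did not move together. ERAP1, which trims peptides inside the endoplasmic reticulum, stood at 235, 229 and 222 CPM in KD_OE libraries, at 107, 118 and 99.0 CPM in KD_NC libraries and at 113, 109 and 104 CPM in NC_NC libraries. KD_OE libraries were above all others, and ERAP1 rose 2.12-fold over KD_NC (edgeR adjusted p = 1.01e-08). TPP2, a cytosolic peptidase, rose 1.65-fold in KD_OE over KD_NC (edgeR adjusted p = 1.17e-05). THOP1, another cytosolic peptidase, fell in the same comparison (log2 -0.72, edgeR adjusted p = 9.20e-06), averaging 46.5 ± 3.16 CPM in KD_OE, 76.7 ± 8.63 CPM in KD_NC and 92.9 ± 5.64 CPM in NC_NC libraries (SD, n = 3 each). ERAP2, NRDC and LNPEP did not pass in KD_OE against KD_NC, at log2 -0.07, 0.03 and 0.21. ERAP1 shares 299 exon bases with CAST on the other strand, which had more counts than ERAP1.

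**Figure D4:**
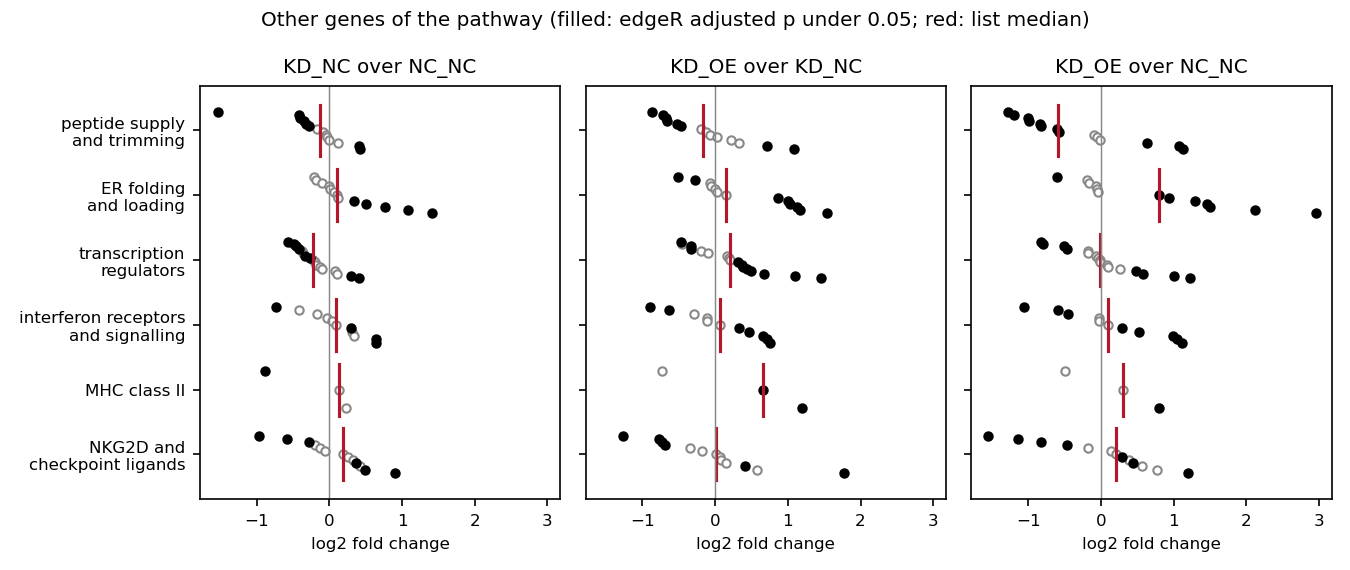
Log2 fold change (edgeR) of every tested gene of 6 related lists in the 3 comparisons. Points are genes, filled where the adjusted p is under 0.05, and red lines are list medians. The folding and loading list reaches 2.95 (HSPA5) in KD_OE over NC_NC, where 8 of the 14 genes of peptide supply are lower.

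Of 17 transcription regulators of class I genes, 2 rose and 6 fell in KD_NC against NC_NC by edgeR, 8 rose and 3 fell in KD_OE against KD_NC, and 4 rose and 4 fell in KD_OE against NC_NC, with median log2 fold changes of -0.23, 0.20 and -0.01. These 8, 11 and 8 calls of 17 stood beside 34.6%, 49.2% and 56.3% of all genes tested. The calls were above that share except in KD_OE against NC_NC, by few genes in each comparison, and no set test was run. STAT2 and IRF9, which act at interferon-stimulated response elements, rose with NLRC5 in KD_OE libraries. STAT2 stood at 104, 106 and 113 CPM in KD_OE libraries, at 54.8, 47.7 and 48.2 CPM in KD_NC libraries and at 53.1, 53.8 and 54.4 CPM in NC_NC libraries. KD_OE libraries were above all others, at 2.14-fold over KD_NC (edgeR adjusted p = 1.30e-08). IRF9 was 2.73-fold higher in KD_OE than in KD_NC (edgeR adjusted p = 1.27e-06), with 13.8 to 14.6 CPM in KD_OE, 3.63 to 6.12 CPM in KD_NC and 5.72 to 6.77 CPM in NC_NC libraries, but shares 1838 exon bases with AL136295.5 on the same strand, which had 461 counts in all against 1277.

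IRF1, which binds class I promoters, was lowest in KD_NC libraries, as HLA-E was. It stood at 80.1, 82.8 and 87.4 CPM in KD_OE libraries, at 49.6, 50.9 and 57.2 CPM in KD_NC libraries and at 78.9, 76.6 and 79.0 CPM in NC_NC libraries. KD_NC libraries lay below the others without overlap, with a log2 fold change of -0.57 against NC_NC (edgeR adjusted p = 7.97e-05) and of 0.67 for KD_OE over KD_NC (adjusted p = 6.13e-06). IRF1 shares 1716 exon bases with C5orf56 on the other strand, which had 1138 counts in all against 10728. RFX5, a subunit of the complex through which NLRC5 acts, was lower in both groups than in NC_NC, by log2 -0.51 in KD_OE and -0.41 in KD_NC (edgeR adjusted p = 0.000104 and 0.00174).

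Of 14 genes for interferons, their receptors and signalling, 11 were tested, and IFNB1, IFNG and IFNL1 did not have enough counts. IFNG had 0 counts in all 9 libraries. Of the 11, 3 rose and 1 fell in KD_NC against NC_NC by edgeR, 5 rose and 2 fell in KD_OE against KD_NC, and 5 rose and 3 fell in KD_OE against NC_NC, beside 34.6%, 49.2% and 56.3% of all genes called, and the 4 calls in KD_NC against NC_NC were near that share. JAK1, a kinase of the interferon receptors, stood at 443, 434 and 442 CPM in KD_OE libraries, at 249, 284 and 251 CPM in KD_NC libraries and at 212, 209.9 and 215 CPM in NC_NC libraries, in 3 separate steps. It rose 1.23-fold in KD_NC over NC_NC and 1.68-fold in KD_OE over KD_NC (edgeR adjusted p = 0.00788 and 4.75e-07). Inhibitors of JAK signalling went both ways: SOCS3 fell in KD_OE against KD_NC (log2 -0.90, edgeR adjusted p = 3.46e-05), and SOCS1, named after its values were seen, rose (log2 0.65, edgeR adjusted p = 0.0247). IFNAR2, a subunit of the type I interferon receptor, fell in KD_OE against NC_NC (log2 -1.05, edgeR adjusted p = 0.00126) at levels of 1.53 ± 0.12 CPM in KD_OE and 3.19 ± 0.28 CPM in NC_NC libraries (SD, n = 3 each), and shares 1803 exon bases with IL10RB-DT on the other strand.

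Class II presentation was nearly silent. Of 11 genes only 3 had enough counts to be tested, namely HLA-DMA, CD74 and CTSS. CTSS, the cathepsin S protease, rose in KD_OE over KD_NC (log2 0.66, edgeR adjusted p = 0.000209), and HLA-DMA stood at 0.547 to 2.36 CPM in the 9 libraries, sharing 55 exon bases with the far more abundant BRD2 on the other strand. CIITA, the class II counterpart of NLRC5, averaged 1.96 ± 0.20 CPM in KD_OE and 3.48 ± 1.08 CPM in NC_NC libraries (SD, n = 3 each), and shares 2416 exon bases with DEXI on the other strand.

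Most markers of other cell types had too few counts to be tested. Of 9 markers of blood and immune cells, 2 were tested (CD14 and ITGAM), and the summed level was 7.10 to 11.3 CPM in KD_OE, 20.1 to 26.2 CPM in KD_NC and 16.4 to 21.0 CPM in NC_NC libraries. PTPRC had 4 counts and CD3E 3 counts in all 9 libraries together, and MS4A1 had 0. Of 5 endothelial markers 2 were tested, with sums of 16.2 to 16.5 CPM in KD_OE, 43.3 to 49.5 CPM in KD_NC and 17.6 to 22.5 CPM in NC_NC libraries, while KDR had 0 counts. CDH5 averaged 13.7, 43.2 and 14.8 CPM and VWF 2.61, 2.44 and 5.67 CPM in the same order of groups. Of 6 fibroblast markers 1 was tested, COL1A1, with sums of 13.5 to 15.6 CPM in KD_OE, 10.96 to 13.98 CPM in KD_NC and 8.19 to 9.73 CPM in NC_NC libraries, and LUM had 0 counts. PTPRC, CD3E, MS4A1, KDR and LUM were thus at or near 0, but other markers of the same lists, among them CD14, CDH5 and COL1A1, were not. CD14 averaged 7.33 CPM in KD_OE and 22.5 CPM in KD_NC libraries. COL1A1 averaged 14.6 CPM in KD_OE and 8.98 CPM in NC_NC libraries. The mean levels of CD14, CDH5 and COL1A1 differed between groups, and their part in any class I value was not tested.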

How the data were processed

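The authors deposited 1 table of raw counts per gene, whole numbers with no normalisation, for 9 libraries. The labels' protocols give Trizol extraction of total RNA and the NEBNext Ultra kit for the libraries. The submitters' processing notes list featureCounts 1.5.0-p3, HISAT2 2.0.5 and StringTie 1.3.3b with no roles, and build hg19. Coordinates and lengths in the table equal GENCODE v29 on GRCh38 in 58735 of 58735 rows, and GRCh38 is used for positions. How strand and reads with several matches were handled is not given in the sources used here.

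In R 4.3.3, edgeR 4.0.16 kept 16812 genes (filterByExpr, minimum count 10), scaled libraries by TMM and fitted a robust quasi-likelihood model to all 9 libraries (6 residual degrees of freedom). P-values of the 3 contrasts were adjusted by Benjamini-Hochberg over all genes tested and called under 0.05. SE is the absolute log2 fold change over the square root of F. Ratios were compared with two-sided exact permutation tests. Alternatives were other scalings (upper quartile, DESeq2 1.42.0 size factors), no filter, DESeq2, limma 3.58.1 voom with sample quality weights, fitting only the 2 groups compared, a replicate block, leaving out each library and, added after seeing the data, a correction for GC content and length. The fit was checked on simulated counts.

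The members and lists were chosen with earlier results of these data known. List genes named are up to 2 risen and 2 fallen per comparison with the lowest adjusted p, and genes named otherwise are said to be so or are named to account for a count. Some genes that this rule names are not reported here. Promoter sequences are from RefSeq (GRCh38.p14).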

Additional observations from a re-analysis of the deposited data

How the results depend on the processing

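Of 16 calls on the class I genes over the 3 comparisons, 11 were kept under all 17 alternatives, among them every call on HLA-B, B2M, HLA-F and NLRC5. The number of the 9 genes called was 3 to 6 in KD_NC against NC_NC and 6 to 8 in KD_OE against NC_NC. In KD_OE against KD_NC it was 2 with no filter on low counts, and 2 to 5 when each library was left out, the 2 coming without KD_OE replicate 2 or without KD_OE replicate 3. The cause was not tested. Without any 1 library the number was 3 to 4 in KD_NC against NC_NC and 7 to 8 in KD_OE against NC_NC. All genes called numbered 4288 to 6427, 7071 to 9186 and 8317 to 12001 over the alternatives, in the order KD_NC against NC_NC, KD_OE against KD_NC and KD_OE against NC_NC.

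Deviations from the group mean correlated at -0.111 to 0.063 between same-numbered libraries, and at -0.186 to 0.132 between libraries of different numbers. With 3 libraries per group, this cannot tell whether same-numbered libraries share a batch. With a replicate block, 3, 4 and 8 of the 9 genes and 5376, 7912 and 9149 of all genes were called in these comparisons.

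Fold changes ran against GC content across genes (Spearman -0.363, -0.083 and -0.287, genes not being independent). With the GC and length correction, LNPEP, a trimming peptidase, stood at log2 -0.19 in KD_OE against KD_NC (adjusted p = 0.0134 by edgeR), against 0.21 without it, and CD47, a checkpoint ligand, at -0.0296 in KD_OE against NC_NC, against 0.45. Uncalled values of HLA-C (0.05) and NLRC5 (0.15) in KD_NC against NC_NC, and of HLA-E (0.08) in KD_OE against NC_NC, also turned positive. Upper-quartile scaling moved the median of all genes by up to 0.13 (log2, KD_OE against NC_NC), and the share of calls that were higher stood at 53.9%, 54.3% and 57.9%, against 46.4%, 48.1% and 49.6% with TMM. Among list genes, the rises of JAK1 and CD274 in KD_NC and every HSPA5, CALR and STAT2 call were kept throughout. Other list calls were often lost over the 17 alternatives. In KD_NC against NC_NC the call on HLA-DMA was lost in 16, and those on THOP1 and MICB in 10 each. In KD_OE against KD_NC the call on IFNAR2 was lost in 14, on RFXANK in 9 and on SAR1B in 7. The counts of list genes that rose or fell depend on the processing to that extent. Depth limits the low genes most: HLA-F had 136 to 312 counts per library.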

Other observations

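Ligands that natural killer and T cells read on tumour cells were measured beside the class I genes. Of 13 such genes, 3 rose and 3 fell in KD_NC against NC_NC by edgeR, 2 rose and 4 fell in KD_OE against KD_NC, and 3 rose and 4 fell in KD_OE against NC_NC, with median log2 fold changes of 0.18, 0.02 and 0.21. These 6, 6 and 7 calls of 13 stood beside 34.6%, 49.2% and 56.3% of all genes tested, near the background in both comparisons of KD_OE. CD274, which encodes the checkpoint ligand PD-L1, was highest in KD_NC libraries, at 31.4, 26.5 and 24.7 CPM in KD_OE, 39.4, 50.1 and 43.7 CPM in KD_NC and 26.0, 22.8 and 22.5 CPM in NC_NC libraries. It rose 1.87-fold in KD_NC over NC_NC and was 1.61-fold lower in KD_OE than in KD_NC (edgeR adjusted p = 1.30e-05 and 8.37e-05).

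The ligands of the activating receptor NKG2D differed among themselves. ULBP1 stood at 20.7, 20.8 and 18.2 CPM in KD_OE libraries, at 6.06, 5.77 and 5.57 CPM in KD_NC libraries and at 9.40, 8.72 and 8.06 CPM in NC_NC libraries. The groups did not overlap, with KD_OE 3.43-fold above KD_NC and KD_NC 1.503-fold below NC_NC (edgeR adjusted p = 3.84e-09 and 0.003). MICB went down in KD_OE, at 22.4, 23.1 and 22.1 CPM, against 49.3, 56.4 and 57.6 CPM in KD_NC and 62.7, 73.3 and 62.7 CPM in NC_NC libraries. It was 2.94-fold lower in KD_OE than in NC_NC and 2.41-fold lower than in KD_NC (edgeR adjusted p = 4.81e-10 and 1.20e-08). MICA fell too in KD_OE against KD_NC (log2 -0.77, edgeR adjusted p = 1.12e-05). So did ULBP2, named after its values were seen (log2 -0.73, edgeR adjusted p = 0.000106). ULBP3, RAET1E, RAET1G and RAET1L did not pass in that comparison. NECTIN2, a ligand of DNAM-1 and TIGIT, was lower in both groups than in NC_NC, at 30.7, 29.1 and 36.4 CPM in KD_OE, 40.2, 32.5 and 36.3 CPM in KD_NC and 64.5, 76.0 and 71.4 CPM in NC_NC libraries.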
